A study of Mus musculus with 18 samples.

Results

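The B-cell antigen receptor signals through a short chain of proteins, and 9 of its genes were followed here: Cd79a, Cd79b, Syk, Lyn, Blk, Btk, Blnk, Plcg2 and Pik3cd. They were chosen by gene symbol for their place in the pathway, with earlier results of these data known. All 9 were among the 23420 genes listed for each of 18 mRNA-seq libraries. The libraries came from bead-purified spleen B cells of MRL/lpr mice aged 5 to 7 weeks, a lupus-prone strain that carries the Fas lpr mutation, so every group, controls included, had that background. Cells were cultured for 4 hours with or without a Toll-like receptor (TLR) agonist, and each of the 6 groups had 3 libraries.

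The female mice all lacked Tlr7. The controls carried 1 working Tlr9 allele (Tlr9+/- Tlr7-/-, called Tlr9het below), and the others were Tlr997 Tlr7-/- (Tlr997), in which the TLR9 molecule has the signalling (TIR) domain of TLR7. Both were left unstimulated or given the TLR9 agonist CpG DNA at 10 µg/ml. The male mice were Tlr779 Tlr9-/- (Tlr779), in which TLR7 carries the TIR domain of TLR9, and their cells were left unstimulated or given the TLR7 agonist CL097 at 5 µg/ml. The titles name the female controls Tlr9+/- whereas the treatment text writes Tlr9-/-, and the titles were followed. Both chimeric alleles sit at the endogenous locus and are therefore carried by every cell of the mouse. B cells were enriched by depleting cells that bear CD43, CD4, CD8, CD11b, CD11c or Gr-1, which would also remove B cells with those markers. Sex, genotype and agonist change together between the female and male mice and cannot be told apart, so the Tlr779 values are set beside the others without a test.

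Membrane immunoglobulin has almost no cytoplasmic tail, and the receptor signals through the CD79A and CD79B chains that accompany it. Each chain carries an immunoreceptor tyrosine-based activation motif (ITAM), a pair of spaced tyrosines. The Src-family kinases LYN and BLK phosphorylate these tyrosines, SYK binds the phosphorylated pair, and SYK then phosphorylates the adaptor BLNK, on which BTK and the phospholipase PLCG2 meet. PIK3CD, the catalytic p110-delta subunit of phosphoinositide 3-kinase, makes the membrane lipid that recruits BTK and PLCG2.

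The coding bases of both ITAMs are shown because they hold the tyrosines that LYN and BLK phosphorylate and SYK binds, with the tyrosine codons in capitals (GENCODE transcripts on GRCm38, 5′ to 3′ on the coding strand).
Cd79a: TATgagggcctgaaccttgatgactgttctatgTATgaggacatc
Cd79b: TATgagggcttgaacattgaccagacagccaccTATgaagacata
Each stretch is 45 bases, with 30 bases between its 2 tyrosine codons. That of Cd79a lies on the plus strand within chr7:24901296-24901469 and is split by an intron between exons 4 and 5 of 5. That of Cd79b lies on the minus strand within chr11:106311867-106312012 and is split between exons 5 and 6 of 6. RefSeq places the other members on GRCm38 at chr13:52582610-52648792 (Syk), chr4:3678068-3791612 (Lyn), chr14:63372837-63417187 (Blk), chrX:134542334-134583628 (Btk), chr19:40928927-40994221 (Blnk), chr8:117498275-117635142 (Plcg2) and chr4:149649168-149702566 (Pik3cd), so the genes are scattered over the genome.

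Values were log2 CPM (reads per gene scaled to a common library total) that the authors had quantile-normalized, so they give a share of each library and not an amount per cell, and the CPM of a library summed to between 991992 and 1004412. In such bulk samples fewer cells of a type and less RNA per cell cannot be told apart. Within groups, libraries correlated at 0.94 to 0.99 across 11676 genes, the lowest values involving the third unstimulated Tlr997 library, and no pair of libraries was identical. Tlr7 was listed at 2.68 to 4.28 log2 CPM in Tlr9het, 4.81 to 5.36 in Tlr997 and 6.61 to 7.82 in Tlr779 libraries. Both genotypes labelled Tlr7-/- thus lay below Tlr779, but they did not overlap each other. The Tlr997 allele holds the TIR domain of TLR7, and its part in that difference was not tested. Tlr9 was at 7.28 to 8.08 log2 CPM in Tlr9het, 7.02 to 7.56 in Tlr997 and 6.93 to 7.47 in Tlr779 libraries, which are labelled Tlr9-/-, so its transcript level does not check that label. Unstimulated, Tlr9 was at 7.28 to 7.48 in Tlr9het and 7.02 to 7.06 in Tlr997 libraries. With CpG it was at 7.93 to 8.08 and 7.18 to 7.56, so the 2 genotypes did not overlap in either condition. The 10 B-cell markers summed to 4439 to 5760 CPM in unstimulated libraries, against 4.70 to 19.7 CPM for 10 T-cell markers and 156 to 493 CPM for 10 macrophage markers.

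In unstimulated cells the 2 receptor chains stood far above the enzymes and the adaptor on a per-length scale. In Tlr9het cells, Cd79a was at 1348 ± 41.0 CPM per kb of annotated exon (SD, n = 3) and Cd79b at 1335 ± 121 CPM per kb. Next in order came Syk (215 ± 5.67 CPM per kb) and Lyn (212 ± 11.9 CPM per kb), whose ranges overlapped. Blk (143), Blnk (140) and Btk (140) formed an overlapping middle group in CPM per kb, and Plcg2 (90.0) and Pik3cd (85.1) lay lowest and overlapped each other. The levels in unstimulated Tlr997 and Tlr779 cells followed nearly the same order, with Cd79a and Cd79b always overlapping at the top, Plcg2 and Pik3cd always last, and Lyn above Syk, without overlap, in Tlr997 cells.

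CpG changed that order. In Tlr9het cells Lyn became the highest member at 185 ± 2.61 CPM per kb, above Cd79a (140) and Blnk (132), which overlapped, and Cd79b (101). Btk became the lowest by a wide margin, at 15 ± 0.695 CPM per kb against 39.1 for Pik3cd, the next above it. In CpG-treated Tlr997 cells Cd79b was highest (213 ± 66.7 CPM per kb), followed by Lyn (149) and Cd79a (145). The range of Cd79a overlapped those of both Cd79b and Lyn, and Btk was again lowest (22.7 ± 1.63). In CL097-treated Tlr779 cells the receptor chains stayed on top, Cd79a at 469 ± 68.1 and Cd79b at 343 ± 89.2 CPM per kb with overlapping ranges, and Btk was last at 49.4 ± 2.03.

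**Figure D1:**
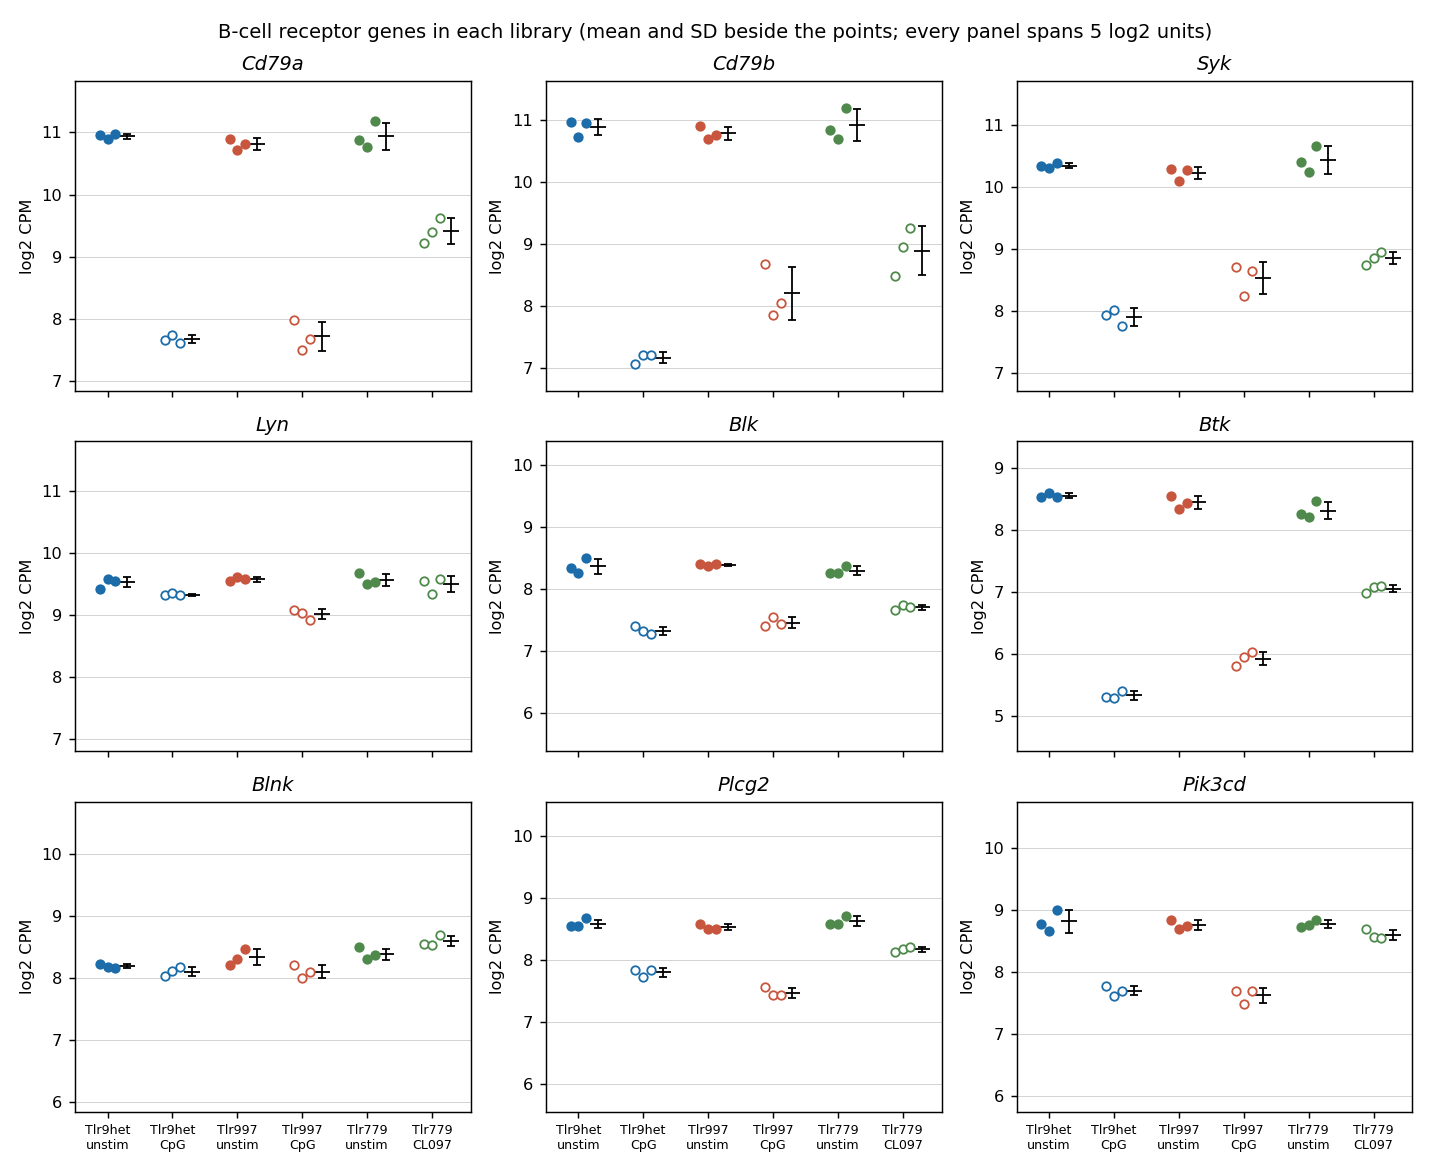
Level of each member in log2 CPM (vertical axis, every panel spanning 5 log2 units) in each of the 18 libraries, by group; filled points are unstimulated, open points stimulated, and the bar beside each group gives its mean and SD. Cd79a, Cd79b, Syk and Btk sit clearly lower in all stimulated libraries, whereas Lyn and Blnk stay close to their unstimulated levels in most groups.

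To learn how engaging TLR9 alters this pathway, CpG-treated and unstimulated Tlr9het cells were compared first. Of the 9 members 7 were lower and 0 higher, where a call needed a limma adjusted p under 0.05 together with a log2 change of more than 0.5 in either direction. Over all 11494 genes tested, 28.2% were called lower and 29.7% higher by that rule, and the median log2 fold change was -1.12 over the members and 0.04 over all genes tested. Together the 9 transcripts made up 0.739% to 0.802% of the CPM in unstimulated libraries and 0.212% to 0.216% after CpG.

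Both receptor chains fell steeply in Tlr9het cells. Cd79a was at 10.96, 10.89 and 10.97 log2 CPM in the 3 unstimulated libraries and at 7.66, 7.74 and 7.61 after CpG. The groups were separated by 3.15 log2 units, and the level was 9.62-fold lower (log2 fold change -3.27, SE 0.10, limma adjusted p = 7.81e-12). Cd79b went from 10.98, 10.74 and 10.96 to 7.07, 7.22 and 7.22 log2 CPM, a 13.2-fold lower level (log2 fold change -3.73, SE 0.16, limma adjusted p = 1.41e-10) and the largest decrease among the members.

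The kinases differed widely in the size of their decrease. Btk, the Tec-family kinase mutated in X-linked agammaglobulinaemia, was at 8.54, 8.60 and 8.53 log2 CPM without and 5.31, 5.29 and 5.41 with CpG. That is 9.31-fold lower, with 3.12 log2 units between the groups (log2 fold change -3.22, SE 0.07, limma adjusted p = 7.49e-13). Syk, the kinase that docks on the ITAMs, went from 10.34, 10.30 and 10.38 to 7.93, 8.02 and 7.75 log2 CPM, 5.40-fold lower (log2 fold change -2.43, SE 0.11, limma adjusted p = 2.11e-10). Blk fell 2.05-fold, from between 8.26 and 8.50 to between 7.28 and 7.40 log2 CPM (limma adjusted p = 7.45e-09). Lyn, which both starts receptor signalling and recruits the phosphatases that end it, was at 9.42, 9.57 and 9.55 log2 CPM without and 9.31, 9.35 and 9.31 with CpG. These values did not overlap, but the change stayed under the fold threshold (log2 fold change -0.19, SE 0.05, limma adjusted p = 0.00604).

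Among the remaining members, Pik3cd fell 2.17-fold (log2 fold change -1.12, SE 0.09) and Plcg2, which cleaves membrane lipid to release calcium and activate protein kinase C, fell 1.72-fold (log2 fold change -0.78, SE 0.06). The adaptor Blnk was at 8.24, 8.19 and 8.16 log2 CPM in unstimulated and 8.04, 8.12 and 8.18 in CpG-treated libraries. Its groups overlapped, and its log2 fold change was -0.08 with a 95% interval from -0.24 to 0.07 (limma adjusted p = 0.322).

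In Tlr997 cells, whose TLR9 signals through the TLR7 TIR domain, CpG lowered 8 of the 9 members and raised 0, where 26% of all genes tested were called lower and 29.6% higher. The median log2 fold change was -1.14 over the members and 0.07 over all genes tested. This comparison used its own unstimulated libraries. The members' sum went from between 0.697% and 0.769% of the CPM to between 0.21% and 0.254%.

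Cd79a in Tlr997 cells went from 10.90, 10.71 and 10.82 to 7.97, 7.49 and 7.67 log2 CPM, 8.58-fold lower (log2 fold change -3.10, SE 0.10, limma adjusted p = 1.68e-11). Cd79b went from 10.91, 10.70 and 10.76 to 8.69, 7.86 and 8.06 log2 CPM, 6-fold lower (log2 fold change -2.58, SE 0.16, limma adjusted p = 6.08e-09). The first CpG-treated library was the highest of its group for both chains, and its Cd79b value exceeded the next by more than the spread within any unstimulated group of female mice.

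Btk in Tlr997 cells went from 8.56, 8.35 and 8.44 to 5.82, 5.95 and 6.03 log2 CPM, 5.73-fold lower (log2 fold change -2.52, SE 0.07, limma adjusted p = 6.46e-12). Syk went from 10.28, 10.10 and 10.27 to 8.71, 8.24 and 8.64 log2 CPM, 3.22-fold lower (log2 fold change -1.69, SE 0.11, limma adjusted p = 8.92e-09). Lyn, at 9.54, 9.61 and 9.58 without and 9.07, 9.03 and 8.92 log2 CPM with CpG, passed the threshold here (log2 fold change -0.57, SE 0.05, limma adjusted p = 6.29e-07). Blk fell 1.90-fold, Plcg2 2.08-fold and Pik3cd 2.20-fold. Blnk was again the exception, at 8.22, 8.32 and 8.47 without and 8.21, 8.0 and 8.10 log2 CPM with CpG. Its groups touched at 8.21 and 8.22, and its log2 fold change was -0.23 (SE 0.07, limma adjusted p = 0.0108), under the fold threshold.

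CL097 in Tlr779 cells, where the RNA receptor TLR7 signals through the TLR9 TIR domain, lowered 5 of the 9 members and raised 0. Of 11082 genes tested there, 23.6% were called lower and 22.7% higher, with a median log2 fold change of -0.59 over the members and -0.02 over all genes. The members' sum was 0.706% to 0.894% of the CPM without and 0.353% to 0.41% with the agonist.

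The receptor chains fell in Tlr779 cells too. Cd79a went from 10.88, 10.77 and 11.19 to 9.21, 9.39 and 9.62 log2 CPM, 2.90-fold lower (log2 fold change -1.54, SE 0.14, limma adjusted p = 4.1e-05). Cd79b went from 10.85, 10.70 and 11.20 to 8.49, 8.96 and 9.26 log2 CPM, 4.04-fold lower (log2 fold change -2.01, SE 0.20, limma adjusted p = 7.29e-05). For both genes the third unstimulated library was the highest of its group, and the groups stayed apart by 1.14 and 1.44 log2 units.

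Among the kinases, Syk in Tlr779 cells went from 10.40, 10.23 and 10.66 to 8.74, 8.85 and 8.94 log2 CPM, 3.00-fold lower (log2 fold change -1.59, SE 0.11, limma adjusted p = 1.48e-05). Btk went from 8.27, 8.22 and 8.48 to 6.99, 7.08 and 7.1 log2 CPM, 2.41-fold lower (log2 fold change -1.27, SE 0.08, limma adjusted p = 9.88e-06). Blk fell 1.5-fold (limma adjusted p = 0.000105). Lyn, at 9.67, 9.49 and 9.53 without and 9.54, 9.34 and 9.58 log2 CPM with CL097, overlapped between the groups (log2 fold change -0.07, limma adjusted p = 0.48).

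The other 3 members of the pathway stayed under the fold threshold with CL097. The change was -0.44 for Plcg2 (SE 0.06, limma adjusted p = 0.000538) and -0.18 for Pik3cd (SE 0.07, limma adjusted p = 0.0482), on the log2 scale. Blnk was at 8.50, 8.32 and 8.37 without and 8.56, 8.54 and 8.70 log2 CPM with CL097, the single member whose libraries were all higher after an agonist (log2 fold change 0.21, SE 0.07, limma adjusted p = 0.0417). Set side by side, the log2 fold changes of Pik3cd were -1.12 and -1.14 with CpG and -0.18 with CL097, and those of Btk were -3.22 and -2.52 with CpG and -1.27 with CL097. The agonists, doses, sexes and genotypes differ between these values, and they were not tested against each other.

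**Figure D2:**
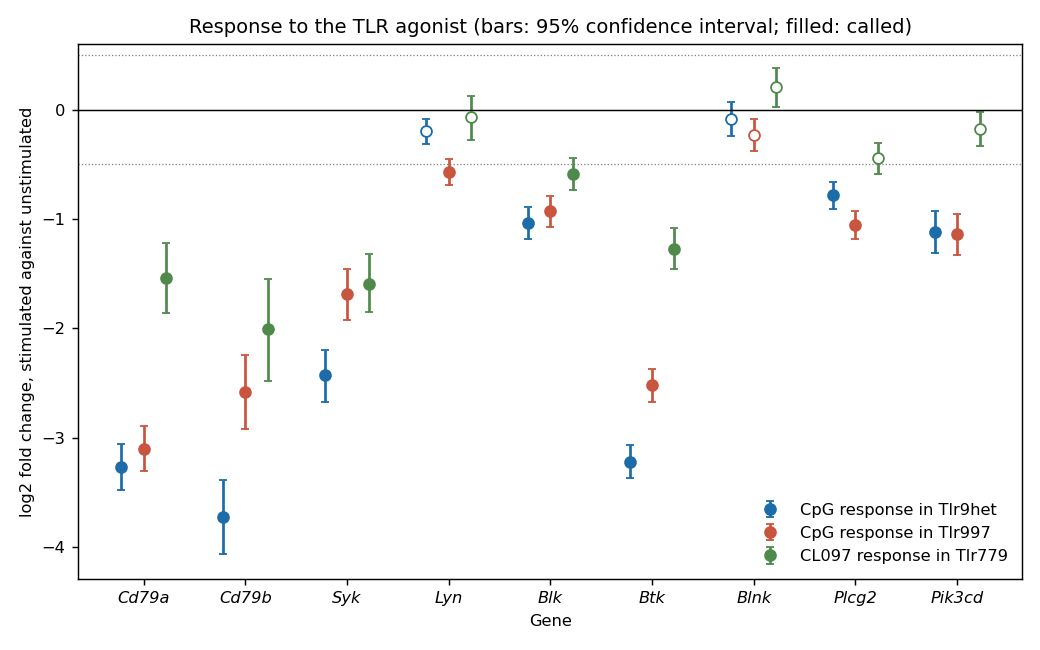
Log2 fold change (vertical axis) of each member between stimulated and unstimulated cells, for CpG in Tlr9het, CpG in Tlr997 and CL097 in Tlr779 cells, with 95% confidence intervals; filled points were called, and the dotted lines mark the fold threshold. Cd79a, Cd79b, Syk and Btk lie lowest, from -1.27 to -3.73, and Blnk stays between -0.23 and 0.21.

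The share of B-cell marker transcripts moved as well. Of 10 B-cell markers, 7 were lower and 1 higher with CpG in Tlr9het, 4 lower and 1 higher with CpG in Tlr997, and 7 lower and 0 higher with CL097 in Tlr779 cells. Over all genes tested, 28.2% were called lower and 29.7% higher in Tlr9het, 26% and 29.6% in Tlr997, and 23.6% and 22.7% in Tlr779 cells. The counts of every marker list in this paragraph are to be read beside these shares. Their summed level went from between 4517 and 5134 CPM to between 2472 and 2589 CPM in Tlr9het, from between 4439 and 5202 to between 3486 and 4290 in Tlr997, and from between 4880 and 5760 to between 2596 and 3202 in Tlr779 cells. None of the 10 was under 0 log2 CPM in any group. Cr2 and Cd22 also belong to the signalling list used below. The T-cell markers summed to at most 19.7 CPM before and 41.8 CPM after CpG, with 2 of 10 (Tlr9het) and 4 of 10 (Tlr997) called higher. Dendritic cell markers summed to between 60.9 and 79.2 CPM without and between 123 and 170 CPM with CpG in the female mice, and 2 of 5 were called higher in each genotype. The macrophage list summed to 156 to 403 CPM without and 116 to 252 CPM with CpG in those mice, overlapping between conditions. Plasma-cell genes, 1 of 5 called higher (Irf4) and 3 lower in all 3 responses, summed to between 1082 and 1652 CPM without and between 2111 and 2633 CPM with an agonist. No neutrophil or erythroid marker was called in any response, and natural killer cell markers summed to at most 15.7 CPM, with 2 of 5 called higher in Tlr9het and 3 higher and 1 lower in Tlr997 cells. With CL097 in Tlr779 cells, 3 of 5 dendritic cell markers were called higher (57.5 to 76.2 CPM without and 138.7 to 168.9 CPM with the agonist) and 2 of 10 macrophage markers lower (207.2 to 492.9 and 112.0 to 232.2 CPM). The part of any of these shifts in the members' changes was not tested.

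The next comparison asked whether the TIR domain attached to TLR9 made a difference for these genes. In unstimulated cells 0 of the 9 members were called between Tlr997 and Tlr9het by limma, and 0 had an unadjusted p under 0.05. Of all genes tested, 0.0174% were called higher and 0% lower, and 1237 of 11494 had an unadjusted p under 0.05. The members' log2 differences lay between -0.13 (Cd79a) and 0.14 (Blnk). The widest 95% interval was that of Cd79b, from -0.44 to 0.24. Only the Syk libraries did not overlap, by 0.02 log2 units, and the 95% interval of Syk ran from -0.35 to 0.11. How often libraries fail to overlap over all genes was not counted.

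After CpG, 3 of the 9 members were higher in Tlr997 than in Tlr9het cells and 0 lower, against 1.25% of all genes tested called higher and 1.47% lower. Cd79b was 2.05-fold higher (log2 difference 1.04, SE 0.16, limma adjusted p = 0.00216), with its lowest Tlr997 library at 7.86 and its highest Tlr9het library at 7.22 log2 CPM. Syk was 1.55-fold higher (log2 difference 0.63, SE 0.11, limma adjusted p = 0.00409), and its groups were separated by 0.22 log2 units. Btk was 1.51-fold higher (log2 difference 0.59, SE 0.07, limma adjusted p = 0.000336), and its groups were separated by 0.41 log2 units. Cd79a, the partner chain of Cd79b, showed no such difference, with a log2 difference of 0.04 and a 95% interval from -0.17 to 0.25.

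A pair of members lay on the other side, below the fold threshold. Lyn was lower in CpG-treated Tlr997 than in Tlr9het cells by a log2 difference of -0.31 (SE 0.05, limma adjusted p = 0.00482), and Plcg2 by -0.33 (SE 0.06, limma adjusted p = 0.00524), in each case without overlap between the libraries. For CpG-treated cells, too, the share of all genes without overlap was not counted. Blk (0.13), Blnk (-0.01) and Pik3cd (-0.07) had log2 differences whose 95% intervals included 0 and reached at most 0.27 in size.

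The difference of the CpG responses, tested as an interaction across the 12 libraries of the female mice, again gave Cd79b, Syk and Btk. Against 0.687% of all genes tested called higher and 0.853% lower, 3 members had a less negative response in Tlr997 cells and 0 a more negative one. The response of Cd79b differed by 1.14 on the log2 scale (SE 0.22, limma adjusted p = 0.0214), from -3.73 in Tlr9het to -2.58 in Tlr997 cells. That of Syk differed by 0.75 (SE 0.15, limma adjusted p = 0.026) and that of Btk by 0.70 (SE 0.10, limma adjusted p = 0.00275). Lyn had a more negative response in Tlr997 cells by -0.37 (SE 0.08, limma adjusted p = 0.0287), under the fold threshold, and for Cd79a the difference was 0.17 with a 95% interval from -0.13 to 0.46. That of Plcg2 was -0.27 (SE 0.08, limma adjusted p = 0.119) and was not called.

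The Btk call held when any 1 library was left out. Without 1 of 4 libraries (unstimulated Tlr9het replicate 1 or any CpG-treated Tlr9het replicate), the Cd79b difference of 1.09 to 1.17 had a limma adjusted p of 0.0502 to 0.0671. Without 1 of 7 libraries (unstimulated Tlr9het replicate 1 or 2, CpG-treated Tlr9het replicate 1 or 3, unstimulated Tlr997 replicate 2, CpG-treated Tlr997 replicate 1 or 3), the Syk difference of 0.66 to 0.76 had one of 0.0521 to 0.0772. The direct comparison of CpG-treated cells kept all 3 calls in each of these fits. In that comparison 4 of 10 B-cell markers were higher in Tlr997 and 0 lower, beside 1.25% and 1.47% of all genes tested. They were Ms4a1 (log2 difference 1.26), Cr2 (0.81), Ebf1 (0.78) and Cd22 (0.58). The marker sum with CpG was 3486 to 4290 CPM in Tlr997 and 2472 to 2589 CPM in Tlr9het. For the difference of the CpG responses, 2 of 10 (Ms4a1 by 1.16, Ebf1 by 0.81) were higher and 0 lower, beside 0.687% and 0.853%. The part of these markers in the result was not tested.

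**Figure D3:**
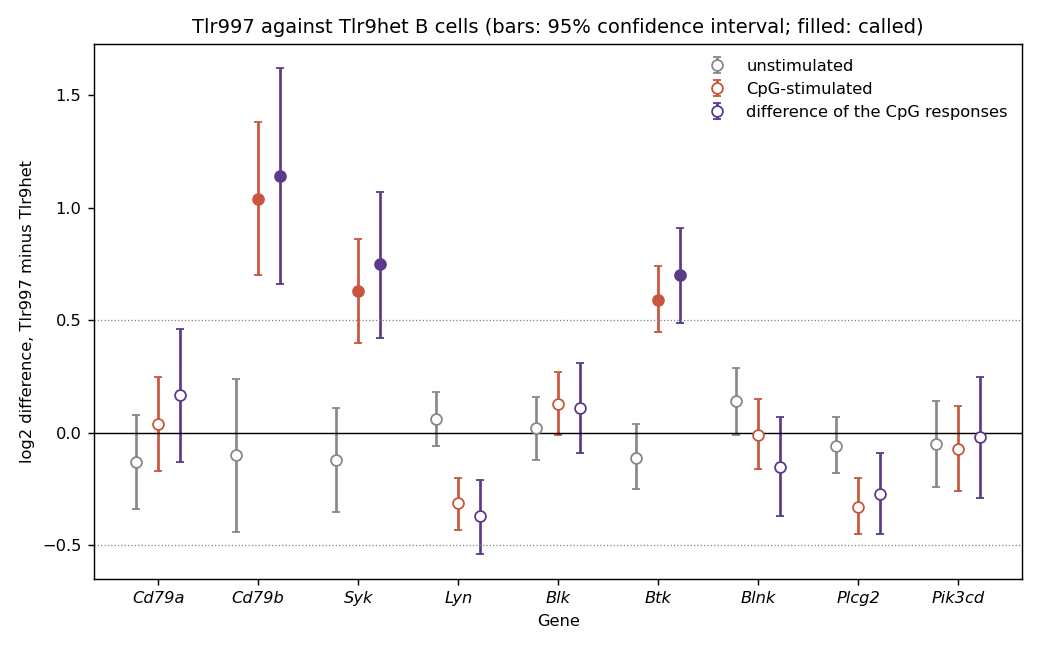
Log2 difference between Tlr997 and Tlr9het B cells (vertical axis, Tlr997 minus Tlr9het) for each member, in unstimulated cells, in CpG-treated cells and as the difference of the CpG responses, with 95% confidence intervals; filled points passed both thresholds. Cd79b, Syk and Btk lie above 0.5 after CpG, while all 9 unstimulated differences stay within 0.14 of 0.

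Differences taken within a library remove whatever is shared by a pair of genes. In unstimulated cells Cd79b and Cd79a were matched, with a mean log2 CPM difference (Cd79b minus Cd79a) of -0.04 ± 0.09 in Tlr9het, -0.02 ± 0.04 in Tlr997 and -0.03 ± 0.04 in Tlr779 cells (SD, n = 3). After stimulation this balance moved apart. It was -0.60, -0.52 and -0.39 in the CpG-treated Tlr9het libraries and 0.72, 0.38 and 0.40 in the Tlr997 libraries, so the 2 groups lay on opposite sides of 0. In CL097-treated Tlr779 libraries it was -0.72, -0.43 and -0.36.

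The other pairs each set a kinase that fell steeply against a member that changed less. Their shifts therefore restate the responses given above and are no separate result. Syk minus Lyn was 0.82 ± 0.09 in unstimulated Tlr9het cells and -1.42 ± 0.12 after CpG, and it went from 0.64 ± 0.13 to -0.48 ± 0.27 in Tlr997 and from 0.87 ± 0.23 to -0.64 ± 0.15 in Tlr779 cells. Btk minus Blnk went from 0.36 ± 0.05 to -2.78 ± 0.04 in Tlr9het cells. The same difference fell from 0.11 ± 0.20 to -2.18 ± 0.19 in Tlr997 and from -0.07 ± 0.17 to -1.54 ± 0.07 in Tlr779 cells. In each genotype the stimulated libraries of both pairs lay below all unstimulated ones.

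**Figure D4:**
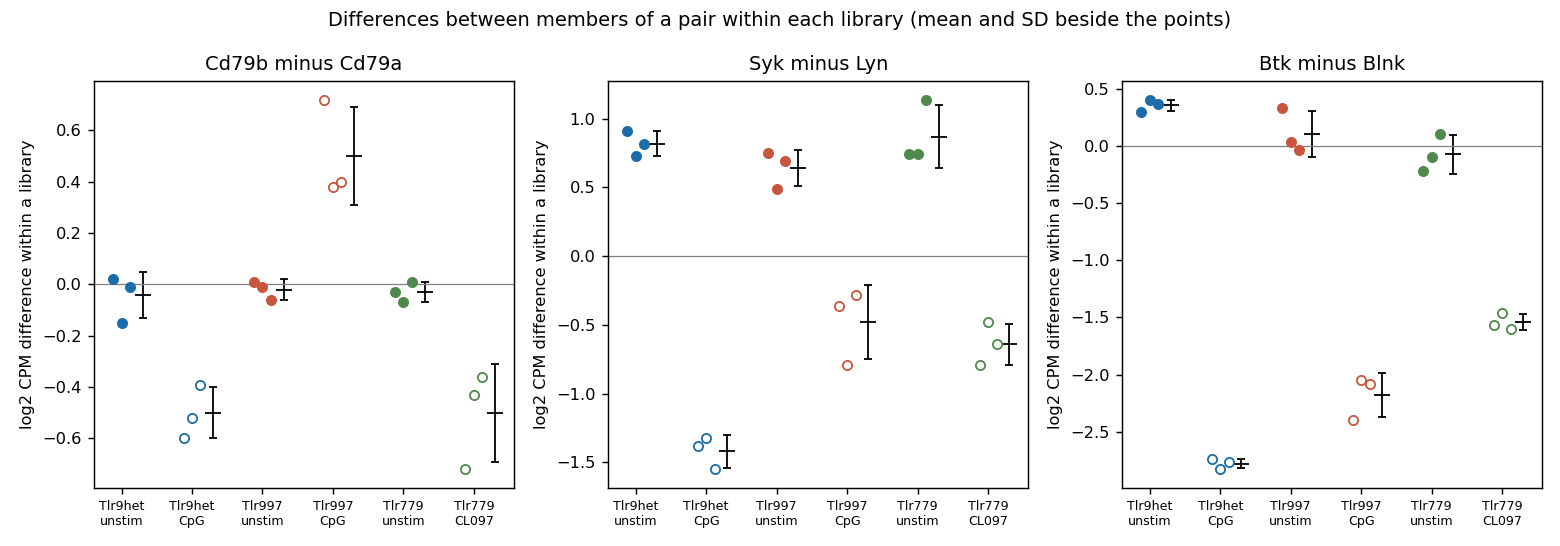
Difference in log2 CPM between the members of a pair within each library (vertical axes) for Cd79b minus Cd79a, Syk minus Lyn and Btk minus Blnk, by group, with mean and SD beside the points. Cd79b and Cd79a are level in all unstimulated groups and part in opposite directions after CpG, to -0.50 in Tlr9het and 0.50 in Tlr997 cells.

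The rest of the pathway was described from a list of 90 other genes: 4 of the coreceptor, 16 adaptors and exchange factors, 19 paralogs of the members, 31 of the downstream relay and 20 inhibitors. The list, too, was chosen with earlier results of these data known. Immunoglobulin chains and Pirb were not analysed here. CpG lowered 56 and raised 5 of the 87 tested in Tlr9het cells, and lowered 54 and raised 5 in Tlr997 cells. CL097 lowered 45 and raised 4 of 86 in Tlr779 cells. Among all genes tested, CpG gave 28.2% lower and 29.7% higher in Tlr9het and 26% and 29.6% in Tlr997 cells. CL097 gave 23.6% and 22.7% in Tlr779 cells. The median log2 fold change of the list was -0.88 in Tlr9het, -0.91 in Tlr997 and -0.70 in Tlr779 cells, beside 0.04, 0.07 and -0.02 over all genes tested.

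The inhibitors of receptor signalling fell along with the activating members. Of 19 tested, 15 were lower in Tlr9het and 14 in Tlr997 cells with CpG, and 13 of 18 were lower in Tlr779 cells with CL097, with 0 higher in any. Inpp5d, the lipid phosphatase SHIP1 that removes the product of PIK3CD, had a log2 fold change of -4.94 (SE 0.07) in Tlr9het, -4.30 (SE 0.07) in Tlr997 and -2.21 (SE 0.13) in Tlr779 cells. Dok3, an inhibitory adaptor, had -3.65, -3.55 and -1.71 in the same order. Cd22, a sialic-acid-binding receptor that recruits the phosphatase SHP-1, had -3.29, -2.71 and -1.85, and its relative Siglecg had -2.57, -2.12 and -1.98. Sla, which promotes removal of the receptor from the surface, had -3.06 in Tlr9het, -2.96 in Tlr997 and -0.95 in Tlr779 cells.

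The coreceptor did not move as a unit. Cd81, a tetraspanin of the coreceptor, rose in all 3 responses, by a log2 fold change of 1.71 (SE 0.06) in Tlr9het, 1.67 (SE 0.06) in Tlr997 and 0.74 (SE 0.21) in Tlr779 cells. Cr2, the complement receptor CD21, fell by 1.89, 1.06 and 1.71 on the log2 scale in the same order. Ptprc, the phosphatase CD45 that keeps Src-family kinases active, fell by 0.74 and 0.70 with CpG.

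Downstream, 21 of 31 relay genes were lower and 1 higher in Tlr9het, 19 lower and 1 higher in Tlr997, and 18 lower and 1 higher in Tlr779 cells. Those with the most negative values were Itpr3, a calcium release channel (log2 fold change -3.44, -3.46 and -1.93 in the 3 genotypes), Rasgrp1, an exchange factor for RAS (-2.90, -3.12 and -2.33), and Orai2 (-2.57, -2.72 and -2.29). Nfatc2, a calcium-regulated transcription factor, had -2.44, -2.23 and -2.24. The 1 gene that rose each time was Orai1, the pore of the store-operated calcium channel, at 0.77, 0.73 and 0.76.

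Adaptors and exchange factors gave 10 lower and 1 higher of 16 in Tlr9het, 11 lower and 0 higher in Tlr997, and 7 lower and 1 higher in Tlr779 cells. Lat2 had log2 fold changes of -2.72, -2.14 and -2.07, and Bank1, a B-cell scaffold that binds LYN, had -2.35, -2.77 and -1.62. Sh3bp2 had -2.24 in Tlr9het, -1.41 in Tlr997 and -0.61 in Tlr779 cells, the last not called, and Dapp1 had -1.81, -1.83 and -1.5. Those called higher were Nck2 in Tlr9het (0.63) and Pik3ap1, the adaptor BCAP, in Tlr779 cells (0.78).

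Paralogs of the members were more mixed, with 7 lower and 2 higher of 17 in Tlr9het, 8 lower and 3 higher in Tlr997, and 6 lower and 1 higher in Tlr779 cells. Yes1, a Src-family kinase, rose by a log2 fold change of 2.85 in Tlr9het, 2.46 in Tlr997 and 1.81 in Tlr779 cells, from a low level. Tec, the relative of Btk, had log2 fold changes of -2.30, -2.22 and -1.07 in the same order. Pik3cg, the p110-gamma relative of Pik3cd, had -2.06, -2.54 and -1.29, and Plcg1, the relative of Plcg2, had -2.20, -1.71 and -1.31. The regulatory subunit Pik3r1 had -1.81, -1.75 and -1.5, and Pik3r2 had -1.94, -1.55 and -1.58. Pik3r5 rose by 0.70 in Tlr997 cells and was not called in the other responses.

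**Figure D5:**
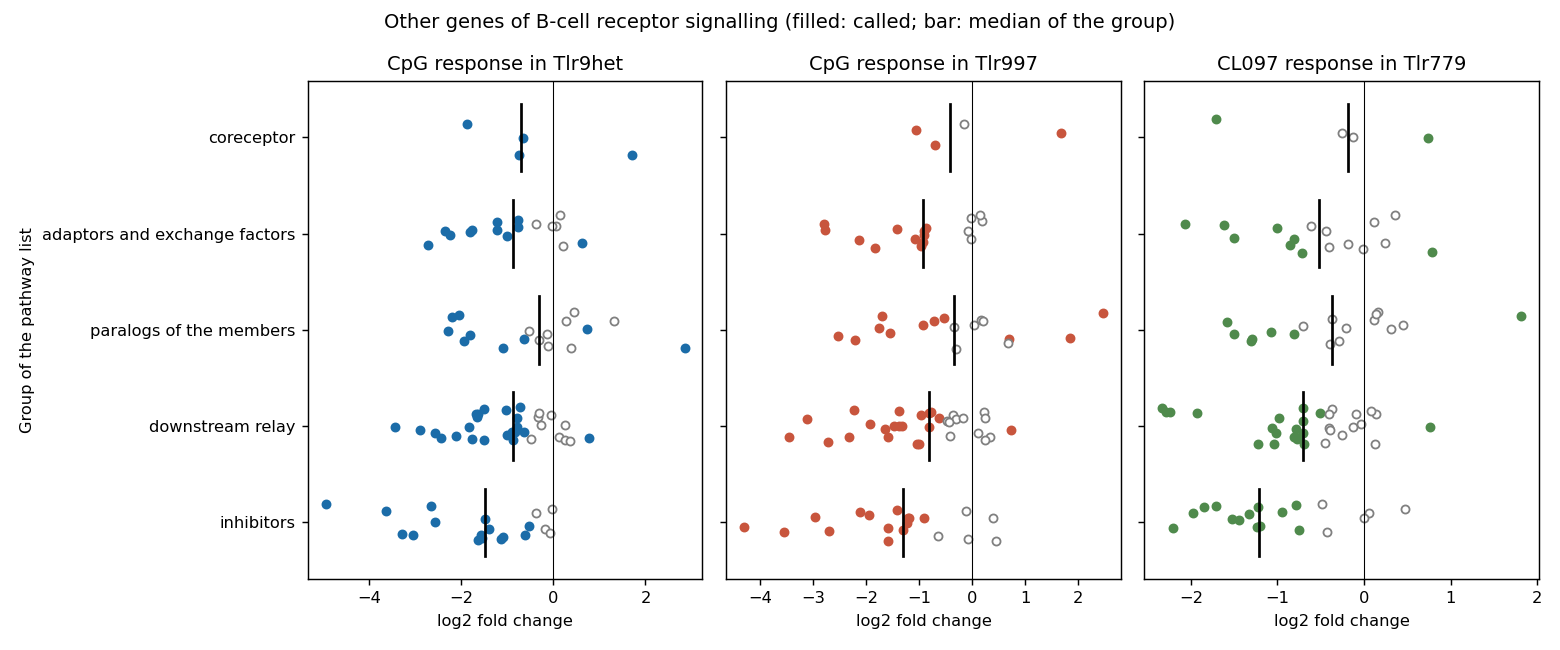
Log2 fold change (horizontal axes) of the other B-cell receptor signalling genes in the 3 stimulus responses, by group of the list; each point is a gene, filled where called, and the black bar is the median of the group. The inhibitors have the lowest medians, from -1.21 to -1.49, and single genes of other groups such as Yes1, Cd81 and Orai1 lie to the right of 0.

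Between the genotypes, 0 of the 87 list genes were called in unstimulated cells by limma, and 7 had an unadjusted p under 0.05. After CpG, 5 were higher and 5 lower in Tlr997 than in Tlr9het cells, beside 1.25% and 1.47% of all genes tested. Higher were Cr2 (log2 difference 0.81), Sh3bp2 (0.71), Cd22 (0.58), Mapk3, the kinase ERK1 (0.57), and Pik3r5 (0.56). Among those lower were the phosphatase gene Ptpn22 (-0.91), Fgr (-0.88), Pik3cg (-0.65) and Nck2 (-0.58). Sh3bp2 encodes an adaptor that binds SYK and PLCG2, while Fgr is a Src-family kinase.

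For the difference of the CpG responses, 3 list genes were higher and 2 lower, beside 0.687% and 0.853% of all genes tested. Sh3bp2 differed by 0.83 (SE 0.13, limma adjusted p = 0.00546), Pik3r5 by 0.82 (SE 0.14, limma adjusted p = 0.0116) and Inpp5d by 0.64 (SE 0.09, limma adjusted p = 0.00418). Ptpn22 differed by -1.05 (SE 0.22, limma adjusted p = 0.0298) and Themis2, an adaptor of B-cell receptor signalling, by -0.52 (SE 0.10, limma adjusted p = 0.0165). Blocking on the replicate number gave 10 calls in place of 5.

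Members resembled each other to different degrees. Over the 18 libraries, after removing the mean of the female and of the male libraries, Cd79a correlated with Cd79b at r = 0.97, with Btk at 0.99 and with Blnk at 0.35, values that reflect the shared stimulus. With group means removed as well, Cd79a still varied with Cd79b (r = 0.95) and Syk (r = 0.88) from library to library, but not with Blk (r = 0.09) or Lyn (r = 0.11). These correlations are descriptions over libraries that share their normalization.

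The genes whose pattern was most like each member were taken as the 3 highest correlations among 11012 genes over the 18 libraries. They were Ets1 (r = 0.998), Abca1 and Cd55 for Cd79a, Chst3 (r = 0.997), Ncoa2 and Eif2c1 for Cd79b, and Parp1 (r = 0.993), Eif2c1 and Hip1r for Syk. For Btk they included Tmem194b (r = 0.995) and Crlf3. They were Msl1 (r = 0.994), Grk6 and Wipf1 for Blk, Rasa3 (r = 0.991), Lrch1 and Pou2af1 for Plcg2, and Zdhhc18 (r = 0.98), Slc44a2 and Mll5 for Pik3cd. Lyn had weaker matches in Prkce (r = 0.93), Cd38 and Themis2, and Blnk the weakest, in Csnk1e (r = 0.779), Cab39l and Plscr3.

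Promoter windows of RefSeq genes on GRCm38.p6, from 250 bases before to 50 bases after each start, were listed for 6 of the 9 members (9 windows) and searched on both strands for a pair of B-cell motifs. The octamer ATGCAAAT, which OCT1 and OCT2 bind, was present in 1.74% of 32851 windows and, among the members, in that of Blnk. AGGAAGT, a match to the ETS-family consensus, was present in 9.35% of all windows and in those of Cd79a and Blnk. The 2 motifs share no match. The matched stretches are printed with the motif in capitals and on the strand of the gene.
Cd79a ETS-type: gcacggctgaacAGGAAGTgaggcggagtt
Blnk ETS-type: tttgggacaaacAGGAAGTagtgctcagtc
Blnk octamer: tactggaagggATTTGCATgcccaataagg
They lie at chr7:24897430-24897459, chr19:40994406-40994435 and chr19:40994333-40994362. The first motif starts 55 bases before the RefSeq start of Cd79a, the others 202 and 130 bases before that of Blnk, where the octamer reads on the opposite strand. All 3 printed stretches overlap, at least in part, an exon that GENCODE annotates for the same gene.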

How the data were processed

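Deposited values were 1 file per library of log2 CPM for 23420 genes. The authors prepared stranded mRNA libraries and, per the labels and methods, trimmed reads with Trim Galore 0.6.5, aligned them to mm10 with STAR 2.6.1a, counted genes with featureCounts (Subread 2.0.1) and quantile-normalized the counts with voom in limma. Quantile normalization gives all libraries nearly the same distribution, so depth per library is unknown here and changes are in shares. Of 6614 genes under -4 log2 CPM in all 12 libraries of the female mice, 6306 held 1 value per replicate number, which differed between numbers for 822, as when an offset per number has been removed, and p-values do not allow for that step.

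Genes over 0 log2 CPM in at least 3 fitted libraries were tested with limma 3.58.1 (R 4.3.3, empirical Bayes with a variance trend) in 1 fit of the 12 female and 1 of the 6 male libraries, with Benjamini-Hochberg adjustment over all genes tested. Genes were called where the adjusted p was under 0.05 and the log2 change exceeded 0.5 in size. The code was tested on simulated data. Replicates were separate samples from 3 mice per genotype; nothing states that a number marks a mouse. Deviations of same-numbered samples correlated at 0.51, 0.29 and 0.51 in Tlr9het, 0.25, 0.49 and 0.33 in Tlr779, and 0.37, 0.08 and 0.02 in Tlr997. Same-numbered samples thus varied together in the first 2 genotypes but not in all Tlr997 pairs. The main fits did not pair samples, and the replicate block, an alternative, used the numbers in every genotype. Named genes were all members, the called list genes with the 3 largest and 3 smallest fold changes per group and comparison with an average over 2 log2 CPM, and the 3 genes most like each member. List genes that the rule names in any comparison were also given for other comparisons, some of which fall outside it. The B-cell markers higher after CpG were named after their values were seen. Some genes that the rule names are not reported here. Members and lists were chosen with earlier results of these data known. Exon lengths were the union of GENCODE M21 basic exons on GRCm38. Alternatives were other filters, pseudocounts, centring, variance models, library weights, sample sets, thresholds, a replicate block and leaving out each library.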

Additional observations from a re-analysis of the deposited data

Results flagged for a closer look

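Of the 9 members, 3 had a CpG response that differed between Tlr997 and Tlr9het cells by the limma test of the difference itself: Cd79b by 1.14, Syk by 0.75 and Btk by 0.70 on the log2 scale, each less negative in Tlr997 cells. Over all genes tested, 0.687% were called higher and 0.853% lower. Adjusted p-values were 0.0214, 0.026 and 0.00275. The Cd79b call was lost in 4 of the fits that left out 1 library and the Syk call in 7, whereas the Btk call was kept in each. All 3 Tlr997 libraries lay above all 3 Tlr9het libraries after CpG for each gene. The genes were flagged by a test that used these same libraries, so this is no separate support. The summed B-cell markers were also higher in the CpG-treated Tlr997 libraries, and their part was not tested.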

How the results depend on the processing

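Counts of called members and list genes for the CpG responses stayed within 1.5 times their value under every alternative run. Without the fold threshold, 8 members were called for CL097, and 5 members and 20 list genes in CpG-treated Tlr997 against Tlr9het cells. With a log2 fold threshold of 1, 29 list genes were called for CL097, 1 member and 0 list genes in CpG-treated cells, and 1 member and 1 list gene for the difference of the CpG responses. For that difference 1 member, Btk, was called without the filter on low values and also without a variance trend, and 3 list genes without the trend. Library weights gave 11 list genes and the replicate block 10. The block raised calls over all genes from 177 to 328 there and changed no call of a member. The adjusted p of the Cd79b and Syk differences was 0.058 and 0.0616 without the filter, 0.0824 and 0.0887 without a trend, and 0.00253 and 0.00342 with the block, and that of Cd79b 0.0501 with all 18 libraries in 1 fit. Leaving out 1 library, list genes called ranged from 5 to 10 in CpG-treated cells (5 without CpG-treated Tlr9het replicate 1, 6 without CpG-treated Tlr997 replicate 3), and for the difference from 3 (without unstimulated Tlr9het replicate 1 or 2, or CpG-treated Tlr9het replicate 3) to 8 (without unstimulated Tlr997 replicate 3). Members called for the difference ranged from 1 (without unstimulated Tlr9het replicate 1, CpG-treated Tlr9het replicate 1 or 3) to 3. Small values with no call changed sign: unstimulated Blk (-0.03 to 0.09) and Pik3cd (-0.13 to 0.05), CpG-treated Cd79a (-0.09 to 0.15, and -0.03 with library weights) and Blnk (-0.06 to 0.05), and the Pik3cd difference (-0.12 to 0.06). The causes were not tested. Of all alternative values of the members, 1127 kept direction and call, 24 lost and 8 gained the call, and 11 changed sign. The 3 libraries per group and the unknown depth limit the precision.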
